A study of Mus musculus with 6 samples.

Results

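The 8 genes described here encode the proteins with which a cell detects foreign or misplaced RNA and DNA, together with the adaptor proteins that pass the signal on: *Ddx58*, *Ifih1*, *Dhx58*, *Mavs*, *Tmem173*, *Zbp1*, *Tlr3* and *Eif2ak2*. They were taken by symbol from a table of 52636 mouse genes, as a functional group chosen with earlier results of these data known, and all 8 were present and had counts. *Tlr3* was kept among them although its protein lies in endosomes and not in the cytosol. Gene expression was measured by RNA-seq in the vestibular sensory epithelium of mice exposed to 3,3'-iminodipropionitrile (IDPN), a nitrile toxic to hair cells (HCs), the cells that sense head movement. The Control group was 3 male 129S1/SvImJ mice, 2 to 4 months old at the start, that drank plain water. The IDPN group was 3 male mice of the same strain and starting age range that had 30 mM IDPN in the drinking water for 8 weeks. Tissue was collected on the last day of treatment. Each library came from 1 animal, whose 2 utricles and 6 cristae were pooled, so HCs, supporting cells and resident immune cells were measured together. All 6 libraries carried a single batch label, but the 3 Control titles had a code stem found in none of the IDPN titles, so a difference tied to those codes and an effect of IDPN cannot be told apart.

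In a resting cell these sensors stand guard at low levels. RIG-I (encoded by *Ddx58*) and MDA5 (*Ifih1*) bind double-stranded RNA and signal through MAVS on the mitochondrial surface, which activates TBK1 and the transcription factors IRF3 and IRF7, and type I interferon genes are then transcribed. Interferon in turn induces a large set of genes, among them several of the sensors themselves, so that the pathway feeds back on its own detectors.

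In the mouse/IDPN comparison, 4 of the 8 genes were upregulated: *Ifih1* by 1.68-fold, *Ddx58* by 1.65-fold, *Eif2ak2* by 2.00-fold, and *Zbp1*, which was almost silent in Control animals and reached 54.1 normalised counts in 1 IDPN animal. A gene was called when the Padj of the DESeq2 Wald test over all genes was under 0.05 and the fold change was above 1.5. Over the 17650 genes with a Padj, 2.32% were called upregulated and 3.42% downregulated. None of the 8 genes was called downregulated by DESeq2 or by the edgeR quasi-likelihood test, and none had an unadjusted DESeq2 p under 0.05 in that direction. The adaptors *Mavs* and *Tmem173* were not called. Every IDPN library lay above every Control library for 5 of the 8 genes, the 4 called and *Tlr3*, beside 11.1% of all genes with a Padj. The median log2-Fold_Change of the 8 genes was 0.63, beside 0.015 for all genes with a Padj. The 4 calls rested on small groups. With IDPN 3 left out none of the 8 genes was called, and *Zbp1* then had no Padj. With IDPN 2 left out 2 remained called (*Ifih1* and *Zbp1*). Over the whole table, upregulated calls also fell, from 410 to 265 without IDPN 3 and to 234 without IDPN 2. edgeR, which called 1.02% of 16310 genes upregulated, called only *Ifih1* among the 7 of the 8 genes that passed its filter on low counts.

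Of the 8 genes, 5 had a promoter window in the RefSeq table for GRCm38.p6, which spans 250 bases before to 50 bases after a gene's start site (*Ifih1*, *Ddx58*, *Eif2ak2*, *Mavs* and *Tlr3*). Those windows were searched on both strands for the core of the interferon-stimulated response element (GAAANNGAAA), DNA letters known from the promoters of many interferon-induced genes. The core was found in 3 of the 5, *Ifih1*, *Ddx58* and *Eif2ak2*, each of them with 1 match. Among all 32851 windows in the table, 3.44% held it. In all 3 genes the core lay just after the start site, inside the transcribed part. The sites are shown because the 3 genes that hold them were also the 3 called genes with a window. All 3 genes are on the minus strand, and each line is the gene's own strand written 5′ to 3′ with the core in capitals. The core of *Ddx58* reads as the reverse complement, since its match was on the other strand.
Ifih1, chr2:62646206-62646235, core starting 33 bases after the start site: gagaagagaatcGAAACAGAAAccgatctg
Ddx58, chr4:40239804-40239833, core starting 3 bases after the start site: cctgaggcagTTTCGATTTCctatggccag
Eif2ak2, chr17:78882535-78882564, core starting 19 bases after the start site: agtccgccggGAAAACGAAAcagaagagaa

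The core was not present in the windows of *Mavs* and *Tlr3*. These matches are a description of the sequence, and no binding was measured in this study.

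Among the RIG-I-like receptors, *Ifih1* gave the call that withstood most changes of method. It is annotated at chr2:62595798-62646255, and its product MDA5 detects long double-stranded RNA. *Ifih1* stood at 452, 422 and 402 normalised counts in Control 1 to 3 and at 597, 692 and 851 in IDPN 1 to 3. The groups did not overlap, and the lowest IDPN library was 1.32 times the highest Control library. The log2-Fold_Change was 0.75 ± 0.20 (SE, n = 3 per group), with a DESeq2 Padj of 0.00558 and an edgeR adjusted p of 0.0369. Without IDPN 3 the log2-Fold_Change was 0.60 and Padj rose to 0.0830.

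*Ddx58*, at chr4:40203773-40239828, encodes RIG-I, which detects short double-stranded RNA with a triphosphate end. Control libraries had 418, 515 and 488 normalised counts and IDPN libraries 613, 796 and 940. Here too the groups were apart, and the Control animals were closer to each other (SD 49.8) than the IDPN animals (SD 164). The log2-Fold_Change was 0.72 ± 0.21 (SE, n = 3 per group) with a DESeq2 Padj of 0.0137. This call was lost in edgeR (adjusted p = 0.0615) and when Control 1, IDPN 2 or IDPN 3 was left out (Padj 0.118, 0.0608 and 0.161), while the log2-Fold_Change stayed between 0.57 and 0.88 over all 6 omissions.

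*Dhx58*, at chr11:100694884-100704271, encodes LGP2, which binds RNA like its relatives but lacks the domains that recruit MAVS and acts as a modulator of both. Its Control values were 206, 156 and 149 normalised counts and its IDPN values 195, 250 and 292. Control 1 was above IDPN 1, so the groups overlapped. The log2-Fold_Change of 0.53 ± 0.26 (SE, n = 3 per group) did not pass (DESeq2 Padj = 0.269), and its 95% interval, from 0.02 to 1.04, included the changes of both other receptors. That one receptor missed the threshold therefore does not show that it responded differently. An antisense transcript, *Dhx58os*, shares 141 bases with *Dhx58* and had 3 to 16 counts per library, and reads from the 2 strands cannot be told apart in a library that does not mark strand.

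**Figure D1:**
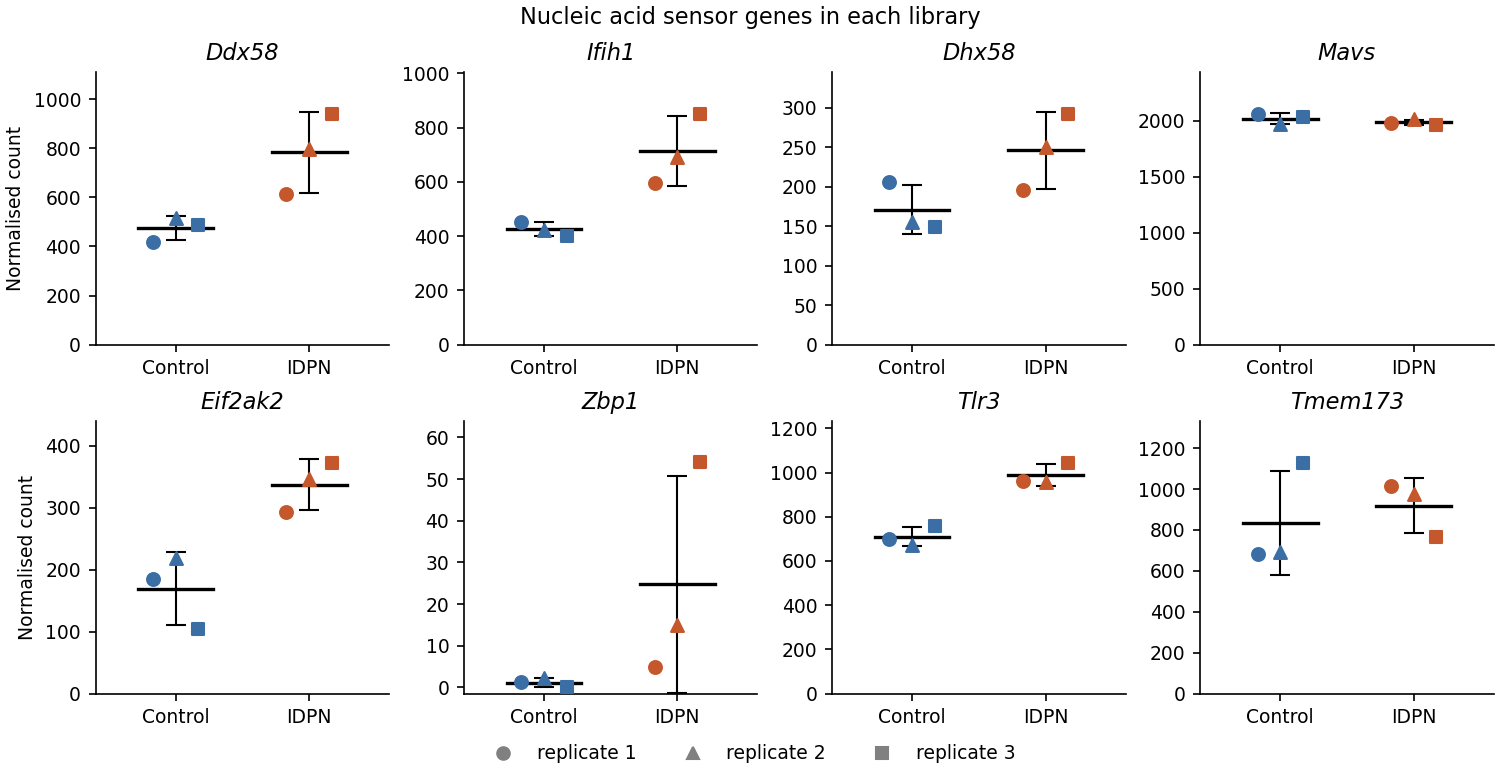
Normalised counts (y axis, from 0, except that the Zbp1 axis starts just below 0 to show its error bar) of the 8 genes in each library, with Control in blue and IDPN in orange, marker shape for the replicate, and bars for the mean and SD (n = 3). The groups are apart for Ddx58, Ifih1, Eif2ak2, Zbp1 and Tlr3 and overlap for Dhx58, Mavs and Tmem173, and IDPN 3 is the highest library for 6 of the 8 genes.

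Both adaptors had overlapping groups in the plot of the 8 genes by library. *Mavs*, at chr2:131234063-131248025, encodes the mitochondrial protein on which RIG-I and MDA5 converge. It had 2062, 1967 and 2030 normalised counts in Control animals and 1984, 2012 and 1965 in IDPN animals. The groups overlapped, and all 6 values lay within a narrow band. The log2-Fold_Change was −0.02 ± 0.14 (SE, n = 3 per group, DESeq2 Padj = 0.966), with a 95% interval from −0.30 to 0.26. On the fold scale this interval ran from 0.810 to 1.19, so a change of 1.5-fold in either direction lay outside it. When libraries were scaled by total counts instead, the direction flipped to 0.23 (Padj = 0.576), since this scaling raised the median log2-Fold_Change of all genes with a Padj by 0.251.

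*Tmem173*, on chromosome 18, encodes STING, the adaptor at the endoplasmic reticulum that responds to the cyclic dinucleotide made by the DNA sensor cGAS. Control animals had 683, 694 and 1128 normalised counts and IDPN animals 1017, 976 and 763. The highest of the 6 values was that of Control 3 and the groups overlapped. The log2-Fold_Change was 0.14 ± 0.23 (SE, n = 3 per group, DESeq2 Padj = 0.851), a fold change of 1.10 with a 95% interval from 0.806 to 1.5, and without Control 3 it was 0.42 (Padj = 0.180). The gene of cGAS, *Mb21d1*, was close to undetected, with 3, 3 and 11 raw counts in Control and 1, 0 and 2 in IDPN animals, too few for DESeq2 to assign a Padj.

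Because *Mavs* varied so little, it was also used as an internal scale, a comparison added after seeing the data. Per 100 counts of *Mavs* in the same library, *Ifih1* had 21.9, 21.5 and 19.8 counts in Control and 30.1, 34.4 and 43.3 in IDPN animals. *Ddx58* had 20.3, 26.2 and 24.1 in Control and 30.9, 39.6 and 47.8 in IDPN animals. *Eif2ak2* had 9.0, 11.1 and 5.17 in Control and 14.8, 17.2 and 19.0 in IDPN animals. In these ratios the same 5 genes had all IDPN libraries above all Control libraries, and *Dhx58* and *Tmem173* overlapped as before. Since *Mavs* was picked for its nearly constant normalised counts, this scaling almost repeats the size factors and gives no separate check.

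*Eif2ak2*, at chr17:78852564-78882573, encodes PKR, a kinase that is switched on by double-stranded RNA and shuts down translation by phosphorylating the initiation factor eIF2alpha. Control libraries had 186, 218 and 105 normalised counts and IDPN libraries 293, 346 and 372. The groups were apart, and the lowest IDPN library was 1.34 times the highest Control library. The log2-Fold_Change was 1.00 ± 0.28 (SE, n = 3 per group) with a DESeq2 Padj of 0.0105 and an edgeR adjusted p of 0.0734. The call was lost without IDPN 2 (Padj = 0.0625) or IDPN 3 (Padj = 0.124). Without Control 3, the lowest library, the log2-Fold_Change was 0.74 and the call held (Padj = 0.0304). A noncoding gene on the opposite strand, *Gm26637*, overlaps *Eif2ak2* by 174 bases and had 1 to 22 counts.

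*Zbp1*, at chr2:173206612-173218923, encodes a sensor of left-handed (Z-form) double-stranded RNA and DNA that can trigger necroptosis through RIPK3. Its raw counts were 1, 2 and 0 in Control animals and 6, 15 and 58 in IDPN animals. The groups were apart, but IDPN 3 alone held most of the reads. From 3 Control and 79 IDPN counts, each group's sum divided by its size factors, the ratio was 22.6 with an exact 95% interval of 7.47 to 112 that covers counting error only. Without IDPN 3 the ratio was 8.94 (2.67 to 46.8). DESeq2 called *Zbp1* upregulated (log2-Fold_Change 4.48 ± 1.24, SE, n = 3 per group, Padj = 0.00909). Without IDPN 3 its mean count was too low for DESeq2 to give a Padj (unadjusted p = 0.0618), and the edgeR filter on low counts removed it. With that filter off, an alternative added after seeing the data, edgeR called *Zbp1* (adjusted p = 0.0129) and also *Ddx58*, *Ifih1* and *Eif2ak2* (0.0141, 0.00913 and 0.0100). Calls rose over the whole table too, with 486 genes upregulated in edgeR without the filter and 166 with it.

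*Tlr3*, at chr8:45395665-45411080, encodes the Toll-like receptor that meets double-stranded RNA inside endosomes and signals through the adaptor TRIF. Control libraries had 699, 673 and 760 normalised counts and IDPN libraries 961, 958 and 1044. The groups were fully apart with little spread inside either (SD 44.6 and 49.1). The fold change was 1.39 (95% interval 1.11 to 1.74), below the required 1.5, and the DESeq2 Padj was 0.0580, so *Tlr3* was not called. Its Padj moved to either side of 0.05 between settings, from 0.0228 without Control 3 to 0.229 without Control 2. It was called under none of the 14 alternative settings and omissions.

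**Figure D2:**
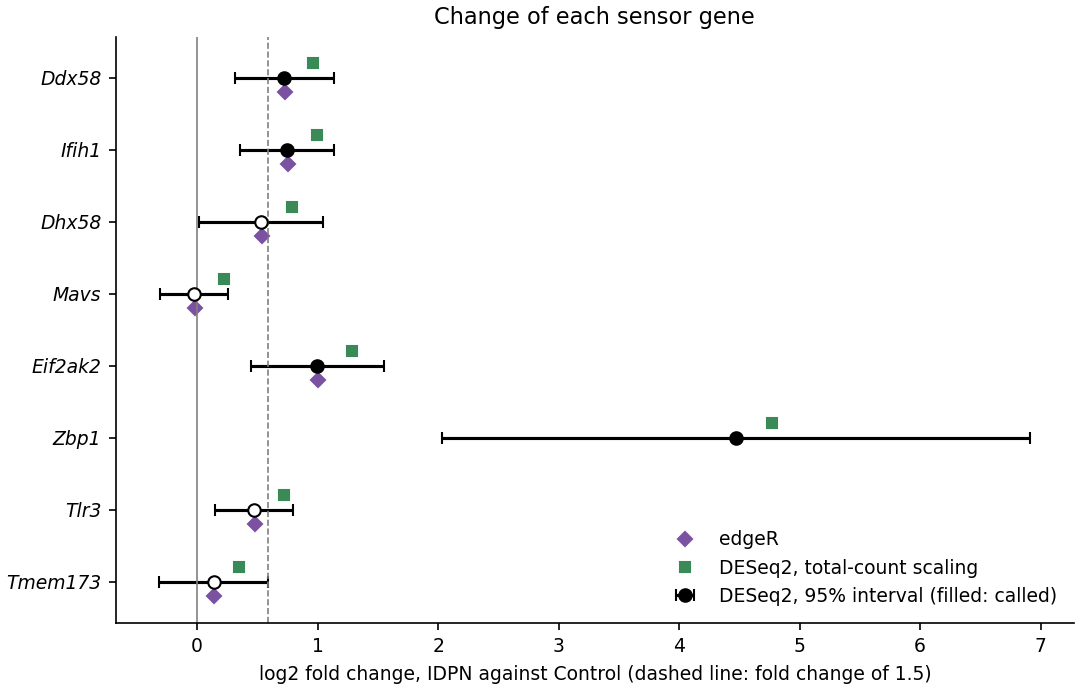
The log2 fold change of each gene (x axis) with its 95% interval from DESeq2 (circles, filled where called), from edgeR (diamonds, absent for Zbp1, which its filter removed) and from DESeq2 with total-count scaling (squares). The dashed line marks a fold change of 1.5, and total-count scaling shifts every gene to the right and takes Mavs from −0.02 to 0.23.

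The intervals of *Ddx58*, *Ifih1* and *Eif2ak2* in the plot of changes all excluded 0 and all reached below the line at 1.5-fold. Tested against a change of 1.5-fold instead of against no change, none of the 8 genes passed in DESeq2 (*Zbp1* Padj = 0.176, the other 7 genes at 1.0), and 34 genes in the whole table were called upregulated in that test.

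Several of the 8 genes ranked the IDPN animals alike. *Ddx58*, *Ifih1*, *Dhx58*, *Zbp1* and *Eif2ak2* were all lowest in IDPN 1, intermediate in IDPN 2 and highest in IDPN 3. *Mavs* and *Tmem173* were instead at their lowest IDPN value in IDPN 3. The Control animals were ranked alike in part: *Ifih1*, *Dhx58*, *Zbp1* and *Eif2ak2* were all lowest in Control 3, and *Ddx58* was lowest in Control 1. The titles of IDPN 2 and IDPN 3 share a code stem that the title of IDPN 1 does not have. These rankings were not tested, and the effect of leaving out IDPN 3 is part of each result above.

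**Figure D3:**
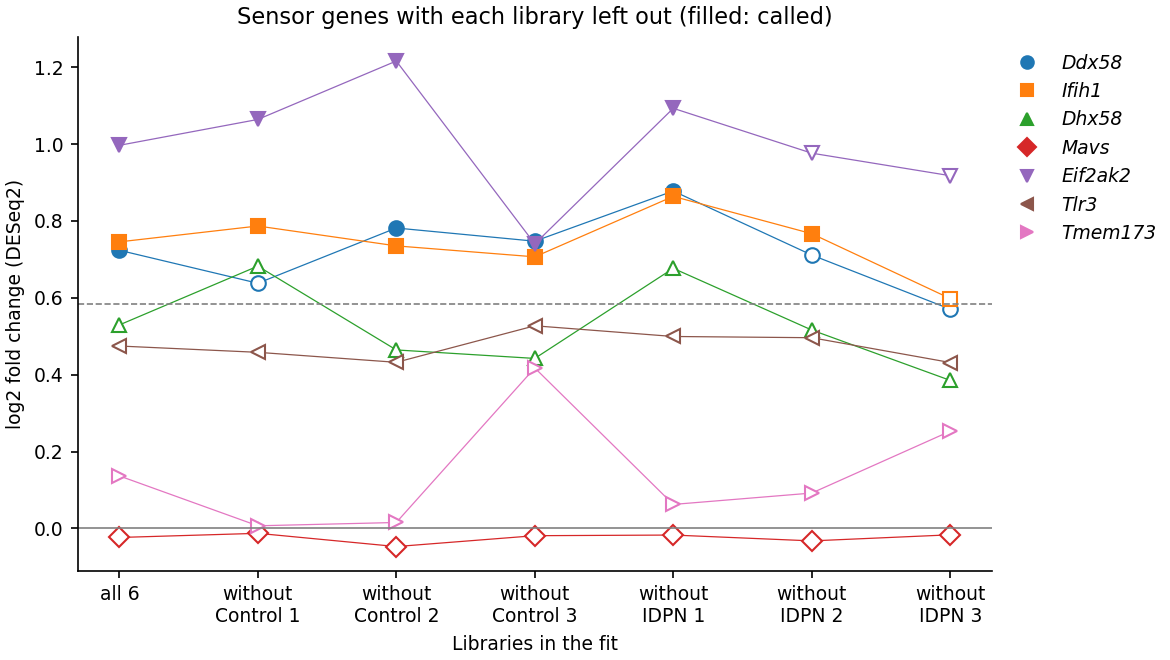
The DESeq2 log2 fold change (y axis) of 7 of the 8 genes with all 6 libraries and with each library left out (x axis), filled where the gene was called, with lines joining the values of one gene. Zbp1 is left off since its values, between 3.14 and 5.54, would compress the scale. All filled points turn open without IDPN 3, where Ddx58, Ifih1 and Eif2ak2 stand at 0.57, 0.60 and 0.92. Without IDPN 3, 265 genes of the whole table were called upregulated, against 410 with all 6 libraries.

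Levels of different genes were compared per kb of exon, as normalised counts divided by the length of a gene's merged exons. In Control animals *Mavs* had the highest level, 604 ± 14.5 (SD, n = 3), followed by *Tmem173* at 305 ± 92.7 and *Tlr3* at 136 ± 8.57. The RIG-I-like receptors came next, *Ddx58* at 67.2 ± 7.06, *Ifih1* at 52.1 ± 3.10 and *Dhx58* at 52.1 ± 9.50, then *Eif2ak2* at 33.2 ± 11.4 and *Zbp1* at 0.333 ± 0.327. Of the neighbours in this order only *Ifih1* and *Dhx58* overlapped between libraries. *Mavs* thus stood at several times the level of the receptors that signal through it.

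In IDPN animals the order was the same, with *Mavs* at 594 ± 7.03 and *Tmem173* at 335 ± 49.7 per kb (SD, n = 3). *Tlr3* stood at 190 ± 9.42, *Ddx58* at 111 ± 23.2, *Ifih1* at 87.4 ± 15.7, *Dhx58* at 75.1 ± 14.8, *Eif2ak2* at 66.0 ± 7.92 and *Zbp1* at 7.0 ± 7.36. Here *Ddx58* and *Ifih1*, *Ifih1* and *Dhx58*, and *Dhx58* and *Eif2ak2* overlapped between libraries, so these neighbours were not separated beyond their spread. The order did not change when the longest transcript was used as the length.

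**Figure D4:**
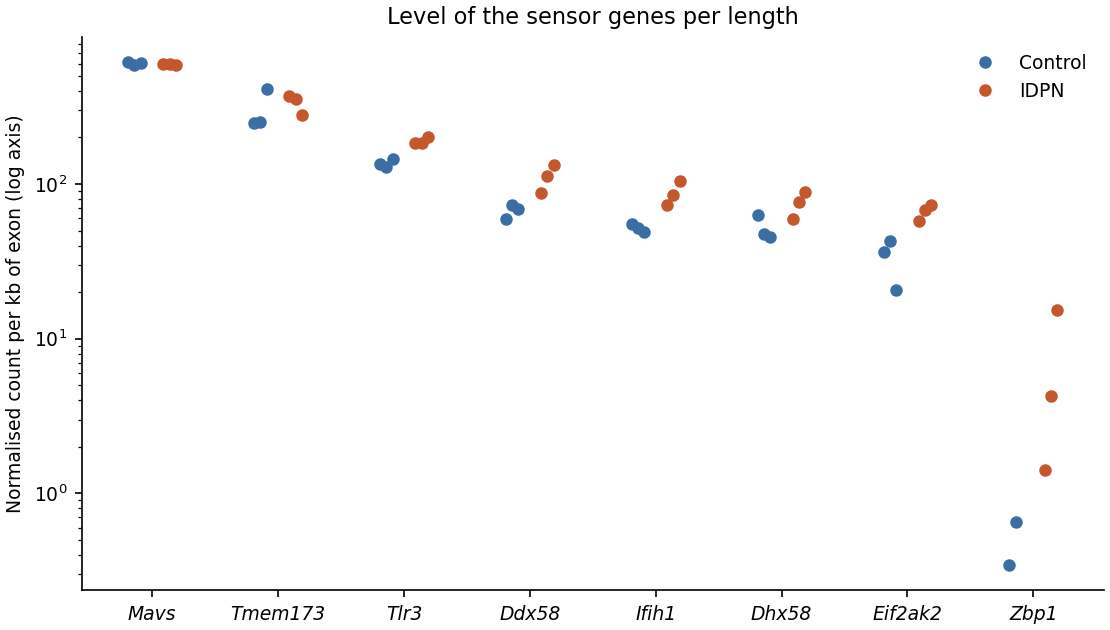
Normalised counts per kb of exon (y axis, log scale) of the 8 genes in each library, Control in blue and IDPN in orange, ordered by the Control mean. One Control library with 0 counts of Zbp1 cannot be drawn on a log axis, and the levels run from 604 for Mavs to 0.333 for Zbp1 in the Control means.

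The partners of the receptors were read from the same fit, in which 2.32% of all genes with a Padj were called upregulated and 3.42% downregulated. Of 18 partners and regulators of the RIG-I-like receptors or their pathway, 3 were upregulated and 0 downregulated, with a median log2-Fold_Change of 0.21. *Isg15*, a ubiquitin-like protein that is attached to the receptors, had 18.2, 33.5 and 35.6 normalised counts in Control and 67.0, 124 and 207 in IDPN animals, again in the order of *Ifih1* among the IDPN animals (log2-Fold_Change 2.18 ± 0.45, SE, DESeq2 Padj = 0.000111). *Adar*, the enzyme that edits double-stranded RNA so that MDA5 does not recognise it, had 394, 484 and 416 in Control and 689, 837 and 702 in IDPN animals (0.78 ± 0.19, Padj = 0.00142). *Tomm70a*, a mitochondrial import receptor that binds MAVS, was called (0.80, Padj = 0.0440) but its groups overlapped and it kept the call in 1 of 6 omissions of a library. *Trim25*, the ubiquitin ligase of RIG-I, had 59.4, 119 and 111 in Control and 172, 143 and 263 in IDPN animals and just missed the threshold (0.99, Padj = 0.0544).

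Below MAVS and STING, 2 of 19 signalling genes were upregulated and 0 downregulated (median 0.32). *Irf7*, the transcription factor that amplifies interferon transcription, went from 163, 304 and 177 normalised counts to 431, 1291 and 748 (log2-Fold_Change 1.94 ± 0.34, SE, DESeq2 Padj = 1.11e-06), with its highest value in IDPN 2. Without Control 3 its Padj was 0.0516. *Chuk*, a kinase of the NF-kB pathway, was called at 0.71 (Padj = 0.00786) and lost without Control 1 or IDPN 2 (Padj up to 0.0674). The kinase *Tbk1* (log2-Fold_Change −0.03, Padj = 0.959) and the factor *Irf3* (0.28, Padj = 0.513), which are present before any signal, were not called, and *Tbk1* stood at 0.22 with total-count scaling.

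Of 21 listed DNA sensors and nucleases 19 were in the table and 15 had a Padj, and DESeq2 and edgeR with its low-count filter called 0 in either direction (median 0.06), with 2 genes higher and 0 lower at an unadjusted DESeq2 p under 0.05. Under total-count scaling 2 were called upregulated, and 1 was called without Control 1, without IDPN 1, or in edgeR with its low-count filter off. Over the whole table, the 410 upregulated genes became 609 with total-count scaling and 486 in edgeR without its filter. They became 243 without Control 1 and 340 without IDPN 1. Of the 11 endosomal Toll-like receptor genes with a Padj, 1 was upregulated and 0 downregulated (median 0.39), namely *Unc93b1*, the chaperone that carries TLR3 to endosomes. It had 452, 491 and 419 normalised counts in Control and 741, 767 and 747 in IDPN animals (log2-Fold_Change 0.73 ± 0.17, SE, DESeq2 Padj = 0.00129) and was called in all 6 omissions. The TLR3 adaptor *Ticam1* was not called (0.41, Padj = 0.390).

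Of the 6 genes that act with ZBP1 in cell death, 1 was upregulated, *Ripk1*, a kinase at the branch between survival and death (log2-Fold_Change 1.25 ± 0.23, SE, DESeq2 Padj = 6.17e-06). Its values were 201, 274 and 364 normalised counts in Control and 675, 657 and 663.5 in IDPN animals, and it was called in all 6 omissions. *Ripk3*, the kinase that ZBP1 binds, was low in both groups (23.0 to 41.8 and 30.8 to 57.2 normalised counts) and was not called (Padj = 0.639). *Mlkl*, which executes necroptosis, stood at 17, 3.46 and 14.2 in Control and 26.5, 35.1 and 39.2 in IDPN animals without passing the test (1.53 ± 0.65, SE, Padj = 0.165).

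Around PKR, DESeq2 and edgeR called 0 of 13 genes (median 0.13), with 2 higher and 0 lower at an unadjusted DESeq2 p under 0.05. The list held PKR partners, the other eIF2alpha kinases, eIF2 subunits and the stress factors below them. Without Control 3, 2 of the 13 were called upregulated, and upregulated calls over the whole table went from 410 to 611. The kinase target *Eif2s1*, which encodes eIF2alpha, was at 0.13 (Padj = 0.784).

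**Figure D5:**
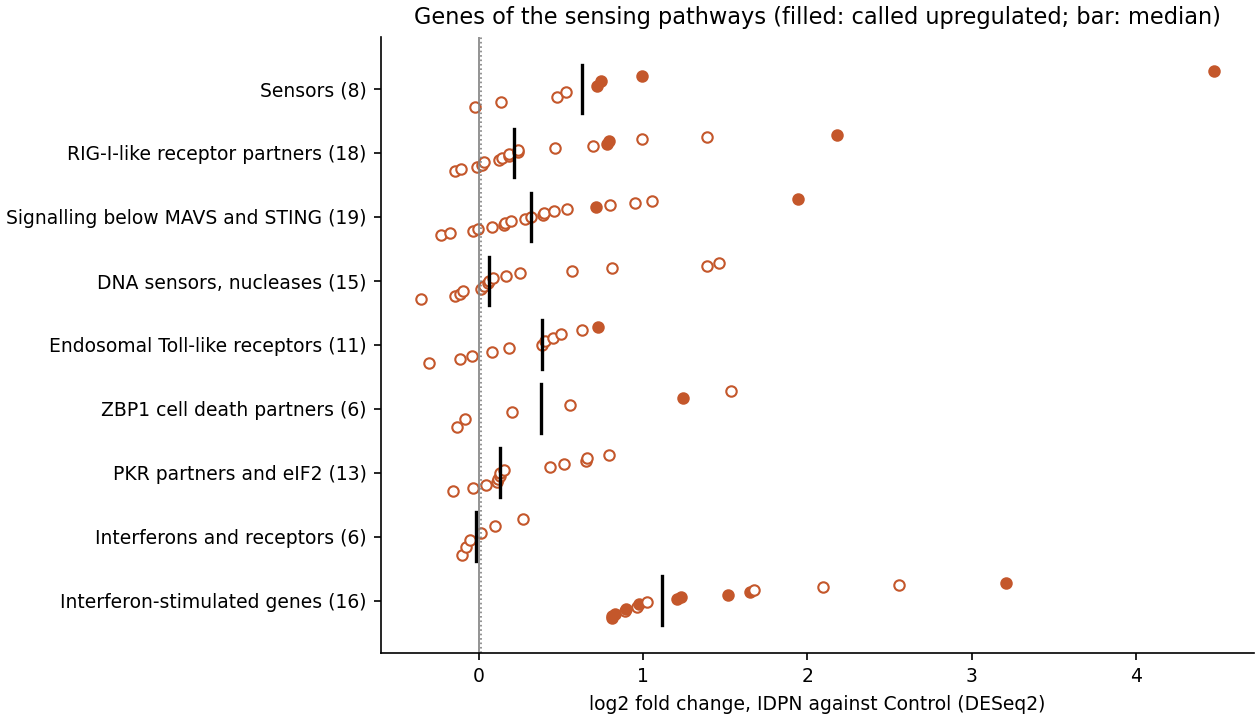
The DESeq2 log2 fold change (x axis) of every gene with a Padj in each list (y axis, number of genes in brackets), filled where called upregulated, with a black bar at the median of the list and a dotted line at 0.015, the median of all genes. Called upregulated were 4 of 8 sensors, 10 of 16 interferon-stimulated genes, 0 of 13 genes around PKR and 0 of 6 interferon receptors. Among all genes with a Padj the share was 2.32%, so 0 calls in lists this small say little about them. All lists were chosen with earlier results of these data known.

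Interferon transcripts themselves were not detected. Of 27 listed interferons and interferon receptors, 21 had 0 counts in all 6 libraries, and these 21 were the interferons, *Ifnb1* included. A count of 0 says only that no read was assigned at this depth. The 6 receptor genes, *Ifnar1* among them (log2-Fold_Change 0.01, Padj = 0.986), were all measured, and DESeq2 and edgeR called 0 of them, with 0 at an unadjusted DESeq2 p under 0.05. Of 16 interferon-stimulated genes, 10 were called upregulated and 0 downregulated (median 1.12), and edgeR called 7. The shares over all genes with a Padj were 2.32% and 3.42%, and this list was chosen with earlier results of these data known. *Usp18*, which restrains interferon receptor signalling, went from 126, 99.3 and 108 normalised counts to 497, 1163 and 1419 (3.21 ± 0.31, SE, DESeq2 Padj = 1.12e-21), and had the same order among the IDPN animals as *Ifih1* and *Ddx58*. *Xaf1*, an interferon-induced promoter of cell death (1.65, Padj = 2.37e-06), and *Irf9*, a transcription factor of the interferon response (1.52, Padj = 2.53e-08), were highest in IDPN 2. Side by side, the log2-Fold_Changes of the called sensors were 0.72 to 1.00 for *Ddx58*, *Ifih1* and *Eif2ak2*, and 4.48 for *Zbp1* with its few counts. Those of the 10 called interferon-stimulated genes were 0.81 to 3.21. These values cover called genes only. Over all genes of each list, called or not, the medians were 0.63 for the sensors and 1.12 for the interferon-stimulated genes.

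Markers of other cells in the epithelium were read beside these results. The summed normalised counts of 17 macrophage markers lay between 6440 and 8366 in Control and between 9330 and 14080 in IDPN animals, a ratio of 1.51 (exact permutation test, p = 0.10, the smallest that 3 against 3 allows). All 17 were detected, and 15 were higher and 2 lower in IDPN animals by their fitted change (median log2-Fold_Change 0.56). Every IDPN library lay above every Control library for 8 of them, beside 11.1% of all genes with a Padj. An unadjusted DESeq2 p under 0.05 was found for 9, all higher. Of these, 2 were called upregulated (*Fcgr1* and *Lyz2*), beside 2.32% of all genes with a Padj. The share of all genes under that unadjusted p is not given here, for this list or the others. The macrophage sums did not overlap between the groups, and neither did the counts of the called sensor genes. The highest macrophage sum was that of IDPN 2, and IDPN 3 was the highest library for 6 of the 8 sensor genes. The 2 lower markers were *Csf1r* and *Cx3cr1*, at −0.01 and −0.10 (0.25 and 0.19 with total-count scaling), and neither was called. The 13 HC markers summed to between 31250 and 35430 in Control and between 22180 and 22710 in IDPN animals, and 8 of them were called downregulated. With total-count scaling 4 were, and the HC sums then overlapped. The sums of lymphocyte (159 to 268 in Control, 139 to 182 in IDPN), supporting cell, Schwann cell, endothelial and stromal markers overlapped between the groups. Markers of plasmacytoid dendritic cells summed to 4333 to 5724 in Control and 3397 to 4256 in IDPN animals, mostly from *Tcf4*, which other cells also express, and these sums overlapped with total-count scaling. In a bulk library more cells of a type and more RNA per cell cannot be told apart, and the part of these shifts in the sensor results was not tested.

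The 5 genes whose log2 normalised counts most resembled the mean profile of *Ddx58*, *Ifih1* and *Dhx58* over the 6 libraries, out of 11190 with a mean of at least 100 counts, were *Tial1* (Pearson r = 0.995), *Larp4* (0.984), *Akr1b8* (0.982), *Prpf8* (0.976) and *Brms1l* (0.976). *Akr1b8* alone among them was called (log2-Fold_Change 0.82, DESeq2 Padj = 0.0467). It kept the call in 0 of 6 omissions of a library, and edgeR did not call it (adjusted p = 0.0938). With 6 points shared by all genes such correlations describe the libraries and carry no test.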

How the data were processed

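Libraries were made with SMART-seq2 from 6 to 11 ng of RNA, with 8 cycles of cDNA and 12 of library amplification and no molecular identifiers, so counting intervals cover counting error only. The authors aligned reads to GRCm38 with STAR 2.5.3a and estimated gene counts with RSEM 2.3.0 on GENCODE M15. The deposited values were these expected counts, all whole numbers, with no normalization. RSEM splits reads that match several genes. Totals were 40474847 to 43566332 per library, size factors 0.825 to 1.21, and each replicate pair differed beyond sampling noise.

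DESeq2 1.42.0 (R 4.3.3, Wald test, median-of-ratios size factors, no covariate) was fitted to all 6 libraries and all 52636 genes. Of these, 25689 had a count, 17650 a Padj, and 40 were left without one by the Cook filter. Normalised counts are expected counts divided by size factors. edgeR 4.0.16 was the alternative. Single values were compared by two-sided exact permutation tests. Code was tested on simulated counts.

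Exon lengths and coordinates came from GENCODE M21 on the same build. Promoters came from RefSeq GRCm38.p6. Protein sequences were not used here, and a second promoter motif is not reported here.

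The 8 genes and all lists were chosen with earlier results of these data known. Lists were receptor partners, signalling below MAVS and STING, DNA sensing, endosomal Toll-like receptors, ZBP1 partners, PKR and eIF2, interferons and receptors, interferon-stimulated genes, and macrophage, lymphocyte, plasmacytoid dendritic cell, HC, supporting cell, Schwann cell, endothelial and stromal markers. Named were all 8 genes, the 3 called genes with the largest change in each pathway list, 12 pathway genes set by name, the 5 genes most alike in profile, and, chosen after their values were seen, the markers *Fcgr1*, *Lyz2*, *Csf1r*, *Cx3cr1* and *Tcf4* and the overlapping genes.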

Additional observations from a re-analysis of the deposited data

How the results depend on the processing

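Of the 8 sensor genes, 7 kept their direction under every alternative setting that gave a value (14 each, and 11 for *Zbp1*), and *Mavs* did so in 13 of 14, the exception being total-count scaling. The 4 upregulated sensors became 1 in edgeR with its filter and 0 in the test against a fold change of 1.5, and 0 to 4 when 1 library was left out (2 without IDPN 2, 0 without IDPN 3). They stayed at 3 or 4 under the other settings, and at 4 in edgeR without its filter, added after seeing the data. None was called downregulated by DESeq2 or edgeR under any setting. Over the whole table, 410 upregulated genes became 166 in edgeR with its filter and 486 without it. They became 609 with total-count scaling, 34 in the test against 1.5-fold, and 234 to 611 when 1 library was left out. The 604 downregulated genes became 357 in edgeR with its filter and 554 without it. They became 214 with total-count scaling, 111 in the test against 1.5-fold, and 436 to 720 when 1 library was left out. The causes were not tested. *Zbp1* has no value under the filter of 10 counts in 3 libraries, in edgeR with its filter, or as a Padj without IDPN 3. No paired analysis was possible because the labels give no replicate numbers that the groups share. With 3 animals per group and single-digit counts of *Zbp1* in Control, the size of its change is poorly bounded, and the labels do not say whether animals were housed or dissected together.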
